A study of Mus musculus with 14 samples.

Results

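The transcripts described are those of 10 genes that move cholesterol out of cells or between cell compartments, together with the liver X receptors (LXRs) that control part of them. They were taken by gene symbol from the counts of 23284 symbols, and all 10 were found in each of the 14 forelimb bud libraries. Each library was made from both forelimb buds of 1 NMRI mouse embryo. Wild type stands for *Smad4*+/+ PrxCreT/+ embryos, which also carry the Cre transgene, and mutant for *Smad4*Δ/Δc PrxCreT/+ embryos, which have 1 constitutively inactive *Smad4* allele and 1 allele deleted by Cre. The Prrx1-Cre transgene recombines in limb mesenchyme, so that other cell types of the bud keep the conditional allele. There were 3 wild-type and 4 mutant embryos at E10.0 (30 somites) and the same numbers at E10.5 (35 somites). The study asked which transcripts depend on SMAD4, the shared mediator of BMP and TGFβ signaling, during the onset of limb bud development and during outgrowth. For these 10 genes the further question was whether LXR targets moved opposite to the genes of cholesterol synthesis.

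LXRs are nuclear receptors that bind oxysterols, which are oxidized cholesterol derivatives formed when cells hold much sterol. With a retinoid X receptor partner they activate genes that lower cellular cholesterol, whereas SREBP2, the main activator of cholesterol synthesis, works when sterol is scarce. In many cell types the 2 programs therefore run in opposite directions. Among the 10 genes, *Nr1h2* (LXRβ) and *Nr1h3* (LXRα) encode the receptors. *Abca1* and *Abcg1* (transporters that pass cholesterol to lipoprotein particles), *Apoe* (the apolipoprotein that carries it) and *Mylip* (a ubiquitin ligase that limits lipoprotein uptake) are textbook LXR targets. *Scarb1* encodes an HDL receptor, *Npc1* and *Npc2* release cholesterol from lysosomes, and *Soat1* esterifies cholesterol for storage.

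The promoters of the 3 members that passed the test in a comparison are shown, since they are where a common regulator would be looked for first. The windows run from 250 bases before to 50 bases after a RefSeq start site and are in the GRCm38.p6 build, whereas all other coordinates below are in mm9 (NCBIM37). RefSeq windows were matched for 7 of the 10 members. The *Abca1* window is chr4:53159846-53160145 on the minus strand, and capitals mark its match to an LXR-type element, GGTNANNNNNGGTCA, in which N is any base. The *Mylip* window is chr13:45389492-45389791 on the plus strand, and capitals mark 3 CCAAT boxes, read as ATTGG on this strand. Of the 2 *Nr1h3* starts, the window chr2:91194986-91195285 on the minus strand is shown, with capitals for a SMAD box, CAGAC, read as GTCTG. This window was chosen because it holds the motif, and the window of the other start holds none.
Abca1: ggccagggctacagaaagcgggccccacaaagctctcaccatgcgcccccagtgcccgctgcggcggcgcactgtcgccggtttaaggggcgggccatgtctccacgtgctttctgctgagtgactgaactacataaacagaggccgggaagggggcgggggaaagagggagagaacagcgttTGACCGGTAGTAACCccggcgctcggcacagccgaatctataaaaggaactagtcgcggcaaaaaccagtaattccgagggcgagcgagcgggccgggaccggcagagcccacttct
Mylip: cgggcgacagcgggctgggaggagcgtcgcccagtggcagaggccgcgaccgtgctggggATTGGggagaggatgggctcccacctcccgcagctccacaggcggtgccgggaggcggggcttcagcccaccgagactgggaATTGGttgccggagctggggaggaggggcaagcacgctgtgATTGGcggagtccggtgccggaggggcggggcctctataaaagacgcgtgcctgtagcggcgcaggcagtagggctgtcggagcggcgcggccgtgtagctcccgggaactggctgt
Nr1h3: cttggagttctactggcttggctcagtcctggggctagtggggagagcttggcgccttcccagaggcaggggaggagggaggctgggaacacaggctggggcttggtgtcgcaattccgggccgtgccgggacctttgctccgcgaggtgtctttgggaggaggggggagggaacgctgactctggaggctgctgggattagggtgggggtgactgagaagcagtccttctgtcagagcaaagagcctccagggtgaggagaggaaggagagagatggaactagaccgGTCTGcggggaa

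Both strands were searched, and the marked matches overlap no other motif searched. The LXR-type element, a direct repeat with a 4-base spacer, lies at bases 184 to 198 of the *Abca1* window and was present in 0.207% of 32851 promoter windows. No other matched member window holds these letters. The first half-site was searched with a free base and the second without, and other forms of the repeat were not searched. CCAAT boxes, which bind NF-Y, occur in 37.4% of windows, among them those of *Mylip*, *Npc2* and *Soat1*. SMAD boxes occur in 49.6% of windows, and *Nr1h3*, *Nr1h2*, *Apoe* and *Soat1* have at least 1. E-boxes (CACGTG) occur in 7.15% and GC boxes (GGGCGG) in 35.7% of windows, and the *Abca1* window holds both. None of the motifs searched lies in every window shown. The windows of *Abca1* and *Mylip* share GC boxes, and that of *Nr1h3* shares no motif with either.

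Between 34066930 and 61691258 reads per library were counted on genes. *Smad4* itself was at 152 to 169 CPM (counts scaled to a common library size by TMM normalization) in the 6 wild-type embryos and at 32.9 to 46.0 CPM in the 8 mutant embryos, and no library went against its label. Forelimb mesenchyme markers (*Prrx1*, *Prrx2*, *Tbx5*, *Twist1*, *Hand2*, *Lmx1b* and *Msx1*) summed to 1096 to 1347 CPM in wild type and 887 to 1106 CPM in mutants. Libraries of mutant replicates 4 and 5 stood apart at both stages: the ribosomal RNA precursor *Rn45s* took 1.72% to 8.05% of their reads and 0.151% to 0.478% in the other 10 libraries. No wild-type library carries these replicate numbers, so that among them library set and genotype cannot be told apart. In bulk RNA, fewer cells of a type and less RNA per cell cannot be told apart either.

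Per kilobase of exon, *Npc2* was the most abundant member at 39.2 CPM per kb (mean of 14 embryos), and *Nr1h3* the least abundant at 0.374. The lengths are those of all GENCODE exons of a gene and not of the refGene models the authors counted on. *Soat1* (10.8), *Mylip* (8.42), *Apoe* (6.51), *Nr1h2* (6.36), *Scarb1* (5.10) and *Npc1* (3.94) followed *Npc2*. In that series the ranges over embryos of each gene and the next overlapped, for example 4.59 to 8.37 CPM per kb for *Apoe* and 4.19 to 8.48 for *Nr1h2*. *Npc2* (36.1 to 43.9) lay clear of *Soat1* (8.55 to 12.9), and *Npc1* (3.16 to 4.87) lay clear of *Abca1* (1.06 to 2.16). The range of *Abcg1* (0.754 to 1.37) overlapped that of *Abca1* but not that of *Nr1h3* (0.231 to 0.569). The transcript level of LXRα per kb was 0.0378 to 0.0814 of that of LXRβ in the 14 embryos, so LXRβ was the more abundant receptor transcript in each of them.

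**Figure D1:**
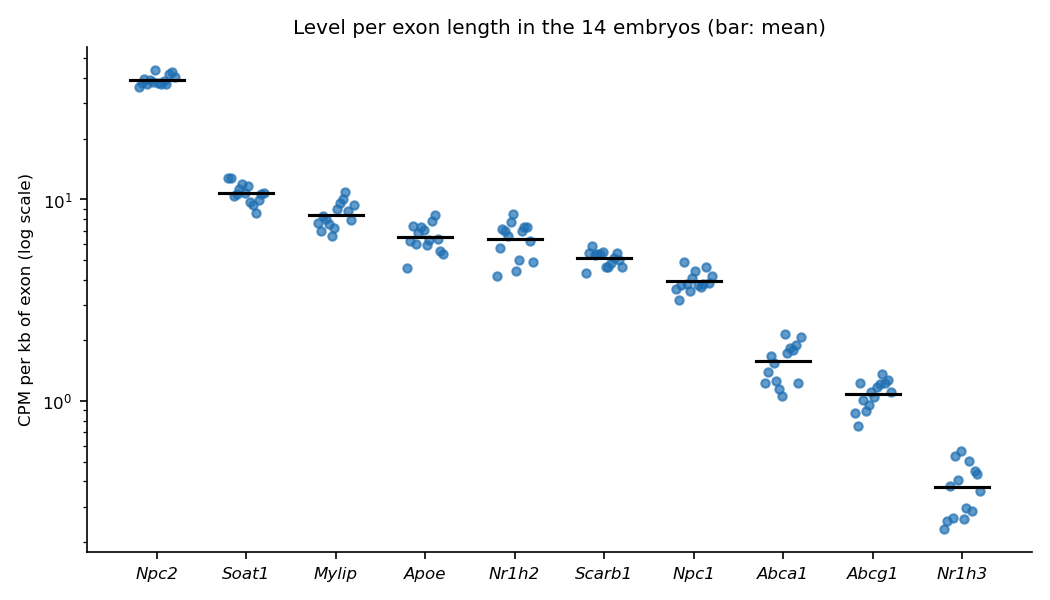
Level of each member per kilobase of exon, in CPM per kb on a log axis, with 1 point per embryo and a bar for the mean of 14 embryos. *Npc2* lies highest at a mean of 39.2, and *Nr1h3* lies lowest at 0.374.

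At E10.0, 1 of the 10 members was a differentially expressed gene (DEG), which required an adjusted p of 0.1 or less and a change of 1.2-fold or more in edgeR's exact test. *Nr1h3*, encoding LXRα, was lower in mutants, and no member was higher. Over all 12393 genes tested, 3.28% were called lower and 3.33% higher in this comparison. *Nr1h3* lies at chr2:91024218-91042991 on the minus strand, and 1.35% of its exonic bases are shared with a neighbouring gene model on the same strand. Its level was 1.35, 1.02 and 1.43 CPM in wild type and 0.582, 0.641, 0.956 and 0.664 CPM in mutants. The highest mutant embryo lay just under the lowest wild-type embryo, and the groups did not overlap, as for 9.78% of all genes on the lower side and 8.07% on the higher side. The log2 fold change was -0.86 (SE 0.22, adjusted p = 0.0424). These are few reads, 50 to 74 in wild type and 27 to 37 in mutants. *Nr1h3* passed the low-count filter through 6 libraries at 1 CPM or more, of which 3 were wild type at E10.0 and none mutant at E10.0. The call was lost without wild-type replicate 1 or 3 or without mutant replicate 1 or 5 (adjusted p = 0.113 to 0.302, edgeR exact test).

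*Nr1h2*, encoding LXRβ, lies at chr7:51804986-51809321. At E10.0 it had 22.2, 26.2 and 28.5 CPM in wild type and 14.1, 19.3, 24.1 and 23.5 CPM in mutants. Mutant replicates 1 and 3 lay below every wild-type embryo, and replicates 4 and 5 lay within the wild-type range. The log2 fold change of -0.34 did not pass the test (SE 0.21, adjusted p = 0.332).

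The 4 LXR targets did not move together between the genotypes at E10.0. *Abca1* (chr4:53043659-53172767, minus strand) was measured at 13, 11.9 and 11 CPM in wild type and at 12.7, 14.5, 17.3 and 16.1 CPM in mutants. All mutants but replicate 1 exceeded the highest wild-type embryo, and the log2 fold change of 0.33 did not pass after adjustment (SE 0.12, unadjusted p = 0.0336, adjusted p = 0.229, edgeR exact test). Of all 12393 genes tested, 2198 had an unadjusted p under 0.05 in this comparison. *Apoe* gave 13.5, 14.5 and 14 CPM in wild type and 9.08, 12.4, 14.6 and 12 CPM in mutants. The mutants were spread around lower values, with replicate 4 above the wild type, and the log2 fold change was -0.23 (SE 0.14, adjusted p = 0.455). For *Mylip* (0.12) and *Abcg1* (-0.04) the genotypes overlapped, with adjusted p = 0.605 and 0.948 (edgeR exact test).

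The carriers, lysosomal exporters and the esterifying enzyme gave small fold changes at E10.0. The log2 fold changes of *Scarb1* (-0.05), *Npc1* (0.02), *Npc2* (-0.10) and *Soat1* (0.04) had adjusted p-values of 0.538 to 0.960. In all 4 genes the groups overlapped. *Npc1* had its widest spread in these mutants, from 33.9 to 52.2 CPM against 37.7 to 43.7 CPM in wild type. On 2.63% of its exonic bases *Npc1* overlaps gene models of the opposite strand, which counting without strand does not separate.

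**Figure D2:**
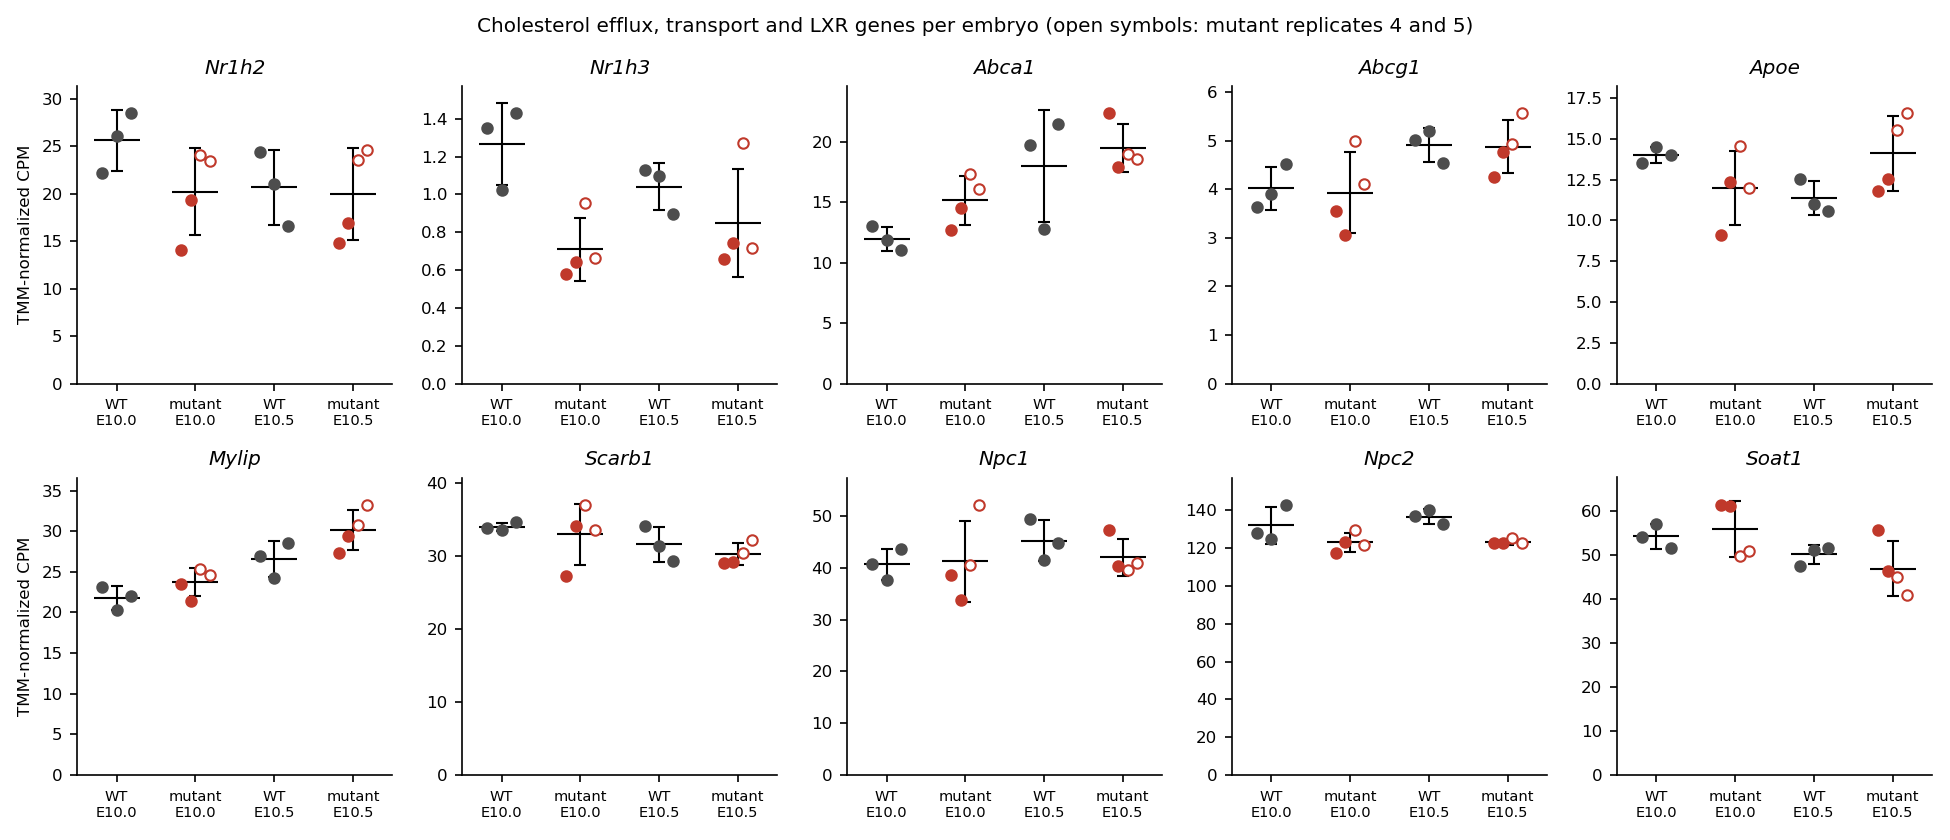
TMM-normalized CPM of each member in each embryo, by genotype (WT, wild type) and stage, with bars for the mean and SD (n = 3 wild-type and 4 mutant embryos per stage). Open symbols are mutant replicates 4 and 5, whose *Nr1h2* levels lie above those of the other mutants at both stages, and the *Nr1h3* levels of E10.0 mutants lie below those of wild type.

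Because mutant replicates 4 and 5 stood apart, the comparison was also made with replicate numbers 1 to 3 alone, which left 2 mutants against 3 wild-type embryos at E10.0. In that fit 3 members were lower in mutants: *Nr1h3* (log2 fold change -1.05, adjusted p = 0.0110), *Nr1h2* (-0.62, adjusted p = 0.00858) and *Apoe* (-0.38, adjusted p = 0.0674, edgeR exact test). Both receptors and 1 target were thus called lower, where 11% of all genes tested were called lower and 5.13% higher. *Abca1* was not called (log2 fold change 0.18).

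At E10.5, none of the 10 members was called in the exact test, where 2.19% of genes were called higher and 1.54% lower. By unadjusted p under 0.05 there was 1, *Apoe* (p = 0.0467, adjusted p = 0.472, edgeR exact test), where 1269 of all 12393 genes tested were under it. No member was called by edgeR's quasi-likelihood test or DESeq2 either. *Apoe* was at 12.5, 11 and 10.6 CPM in wild type and at 11.8, 12.5, 15.5 and 16.6 CPM in mutants. Mutant replicates 4 and 5 were the high ones and the other mutants lay within the wild-type range. The log2 fold change was 0.31 (SE 0.14), and with replicate numbers 1 to 3 alone it was 0.10. No member was called in that fit, where 2.57% of genes were called higher and 1.84% lower.

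The receptors overlapped between genotypes at E10.5. *Nr1h3* was at 1.13, 1.1 and 0.897 CPM in wild type and at 0.658, 0.742, 1.27 and 0.716 CPM in mutants. Mutant replicate 4 was the highest of all 7 embryos and the other mutants were the lowest (log2 fold change -0.32, SE 0.24, adjusted p = 0.850). *Nr1h2* had 24.5, 21.0 and 16.6 CPM in wild type and 14.8, 16.9, 23.5 and 24.7 CPM in mutants. As at E10.0, mutant replicates 4 and 5 were above the other mutants, and the log2 fold change was -0.05 (SE 0.24, adjusted p = 0.987).

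*Npc2*, the soluble lysosomal carrier, was the 1 member whose genotypes did not overlap at E10.5, where 6.4% of all genes tested did so on the lower side and 6.59% on the higher side. It had 137, 140 and 132 CPM in wild type and 123, 123, 126 and 122 CPM in mutants. Each mutant embryo lay below each wild-type embryo, but the log2 fold change of -0.15 did not pass the test (SE 0.03, adjusted p = 0.532). *Abca1*, *Abcg1*, *Mylip*, *Scarb1*, *Npc1* and *Soat1* had log2 fold changes of -0.10 to 0.18 at this stage, with adjusted p-values of 0.598 to 1.

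Between E10.0 and E10.5 few members passed the test, in numbers near the shares of all genes called. Those that passed were *Abca1* and *Mylip*, which rose. Of 6 LXR targets tested outside the members, 0 were called higher and 1 lower in wild type. In mutants 1 of them was called higher and 1 lower. In wild type 1 of 10 members rose, *Abca1*, and none fell, against 5.39% of all genes called higher and 4.74% called lower. In mutants 2 of 10 rose, *Abca1* and *Mylip*, and none fell, against 10.8% and 8.4% of all genes. With 1 sample left out at a time, 1 to 5 members passed in mutants. Without mutant E10.0 replicate 1 or 3 it was 1 member, where 2738 and 1902 of the 12393 genes tested were called in either direction. Without mutant E10.0 replicate 4, 5 passed: *Abca1*, *Mylip*, *Abcg1* and *Apoe* rose and *Soat1* fell, where 2213 genes were called.

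In wild type *Abca1* went from 13, 11.9 and 11 CPM at E10.0 to 19.8, 12.7 and 21.5 CPM at E10.5. Replicate 2 of E10.5 stayed within the range of the younger embryos, whereas the other E10.5 embryos were well above it. The log2 fold change was 0.58 (SE 0.24, adjusted p = 0.0117), and without replicate 3 of E10.5 it was 0.44 with adjusted p = 0.208 (edgeR exact test). In mutants *Abca1* went from 12.7, 14.5, 17.3 and 16.1 CPM to 22.4, 17.9, 19.0 and 18.5 CPM. The stages did not overlap, and the log2 fold change was 0.37 (SE 0.12, adjusted p = 0.0601). Without E10.0 replicate 1 or 3 or E10.5 replicate 1 the mutant call was lost (adjusted p = 0.152 to 0.198, edgeR exact test).

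*Mylip* (chr13:45485111-45507388, plus strand) had 23.5, 21.4, 25.4 and 24.6 CPM in mutants at E10.0 and 27.4, 29.4, 30.7 and 33.3 CPM at E10.5. Every E10.5 mutant exceeded every E10.0 mutant, and the log2 fold change was 0.35 (SE 0.08, adjusted p = 0.00389). In wild type it was at 23.2, 20.3 and 22 CPM and then at 26.9, 24.2 and 28.6 CPM. These stages did not overlap either, and the log2 fold change of 0.28 narrowly missed the threshold (SE 0.09, adjusted p = 0.104). It was past the threshold with edgeR's quasi-likelihood test (adjusted p = 0.0894) and with DESeq2 (adjusted p = 0.0440). Replicate numbers 1 to 3 alone also called *Mylip* in wild type beside *Abca1* (adjusted p = 0.0432), where 7.39% of genes were called higher and 7.7% lower. In mutants a fit with the replicate number as a block, since same-numbered libraries of the 2 stages varied together, called the same 2 members (11.9% of genes higher, 8.99% lower). Replicate numbers 1 to 3 alone called them and *Soat1*, which was lower (9.59% of genes higher, 7.87% lower).

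*Abcg1* and *Apoe* also had wild-type embryos that did not overlap between stages, but neither passed the test. In wild type *Abcg1* was at 3.64, 3.91 and 4.51 CPM at E10.0 and at 5.02, 5.20 and 4.53 CPM at E10.5. The lowest E10.5 embryo barely exceeded the highest E10.0 embryo (log2 fold change 0.29, SE 0.11, adjusted p = 0.368). In mutants the log2 fold change of *Abcg1* was 0.31 (SE 0.17, adjusted p = 0.185, edgeR exact test). *Apoe* was lower at E10.5 in wild type and higher in mutants, with log2 fold changes of -0.30 (SE 0.08, adjusted p = 0.276) and 0.23 (SE 0.18, adjusted p = 0.270). With *Mylip*, 2 members were thus separated between wild-type stages on the higher side and 1 on the lower side, where 16.6% and 20.4% of all genes were. In mutants *Abca1* and *Mylip* were separated on the higher side, where 11.1% of all genes were, and none on the lower side, where 8.91% were.

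The other members did not pass with stage. *Soat1* was at 61.5, 61.2, 49.8 and 50.9 CPM in E10.0 mutants and at 55.7, 46.3, 44.9 and 40.9 CPM in E10.5 mutants. Replicates 4 and 5 were the low ones at both stages. Its adjusted p in mutants was 0.0645, but the log2 fold change of -0.25 fell short of the fold threshold. In wild type the log2 fold change of *Soat1* was -0.11 (SE 0.06, adjusted p = 0.620, edgeR exact test). *Nr1h2*, *Nr1h3*, *Scarb1*, *Npc1* and *Npc2* had adjusted p-values of 0.385 to 0.800 in wild type and 0.423 to 0.983 in mutants.

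Macrophage markers moved with some of these comparisons. The 13 markers summed to 4.99 to 10.5 CPM in wild type and 12.5 to 15.2 CPM in mutants at E10.0, and to 20.3 to 22.7 and 24.5 to 35.3 CPM at E10.5. Of 8 markers tested, 7 rose with stage in each genotype, as *Abca1* did in both and *Mylip* in mutants. Over all genes, 5.39% were called higher with stage in wild type and 10.8% in mutants. At E10.0, 4 of 8 (*Ptprc*, *Cx3cr1*, *C1qc* and *Mrc1*) were higher in mutants, whereas *Nr1h3* was lower. None of the 13 markers was at 0 over a whole group. Mesothelium markers summed to 8.58 to 18.9 CPM in E10.0 mutants and to 1.5 to 6.76 CPM in the other embryos. Of 7 forelimb mesenchyme markers, 4 were lower in E10.0 mutants and 0 higher, where 3.28% and 3.33% of all genes were. The hindlimb marker *Tbx4* rose with stage in both genotypes. The part of these cells in the members' values was not tested.

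**Figure D3:**
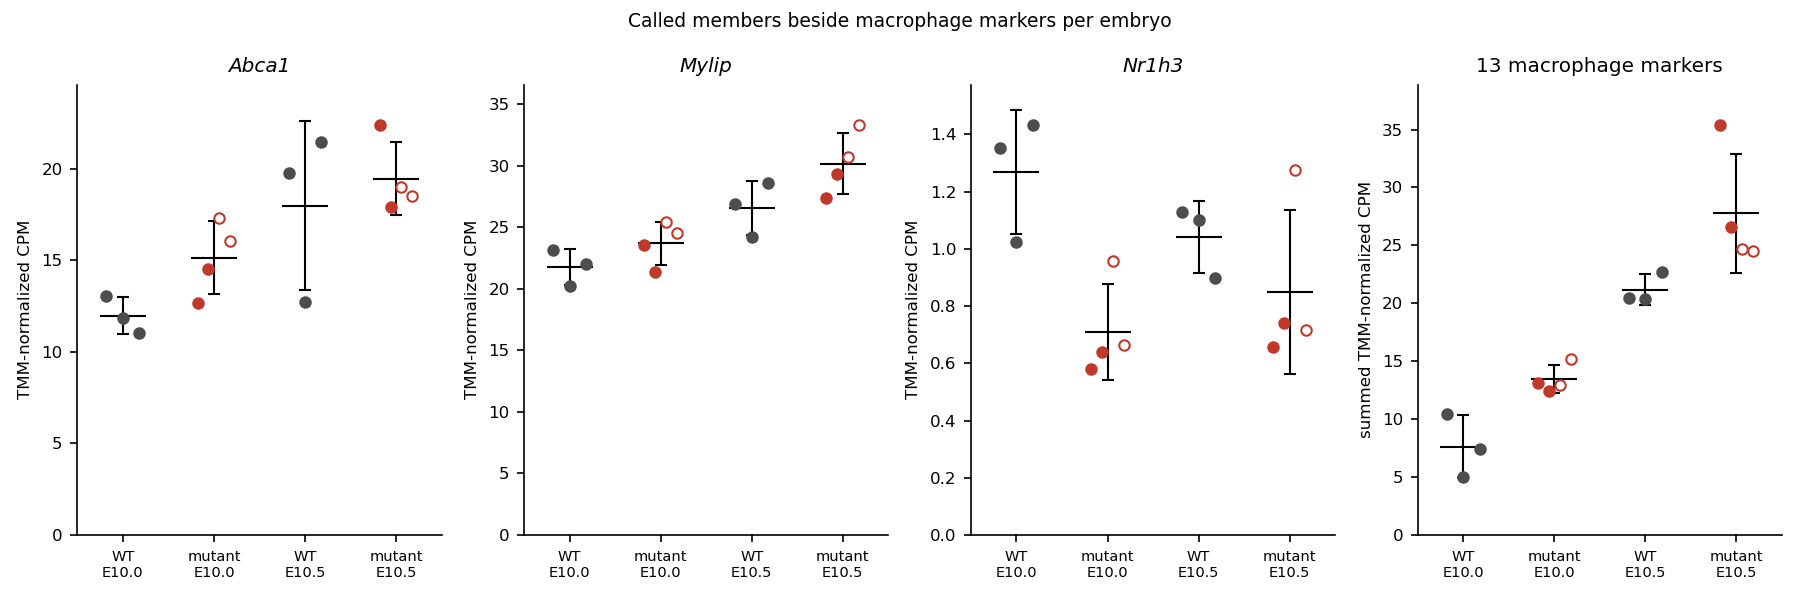
TMM-normalized CPM of the 3 called members and the summed CPM of 13 macrophage markers in each embryo (mean and SD as bars, open symbols for mutant replicates 4 and 5). The markers reach 20.3 to 35.3 CPM at E10.5 against 4.99 to 15.2 CPM at E10.0, and *Nr1h3* is lowest where the E10.0 markers are higher, in mutants.

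A model with an interaction term, fitted with edgeR's quasi-likelihood test, asked if the genotypes differed more at one stage than at the other. None of the 10 members was called, as against 0.186% of all genes, and DESeq2 called none either. At an unadjusted p under 0.05 there was 1, *Apoe*, where 714 of all 12393 genes tested were under it. Its interaction, the log2 difference of mutants from wild type at E10.5 minus that at E10.0, was 0.53 (SE 0.20, adjusted p = 0.769). *Nr1h3* gave an interaction of 0.54 (SE 0.32, adjusted p = 0.950). The stronger deviation of *Nr1h3* at E10.0 is thus not shown to differ from that at E10.5.

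The 4 LXR targets among the members were then set beside 21 genes of cholesterol synthesis, of which 18 were tested. *Nsdhl* and *Ebp* lie on chromosome X, and *Hmgcs1* had 0 to 6 reads per library. At E10.0, 17 of the 18 synthesis genes were lower in mutants, with a median log2 fold change of -0.58, and the 18th, *Lbr*, was at -0.21 (adjusted p = 0.304). *Dhcr7*, the final reductase of one branch of the pathway, had the smallest p (log2 fold change -0.76, adjusted p = 6.09e-15), followed by *Lss* (-0.75, adjusted p = 2.74e-13). The 4 LXR targets had a median of 0.04 in the same comparison, 2 above and 2 below 0 and none called, and the median of all genes tested was -0.02. The study had singled out this pathway on these same embryos, so that the count is not independent evidence of its direction.

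At E10.5 the genotypes were closer for the synthesis genes, with 2 of 18 lower in mutants (*Acat2* and *Tm7sf2*) and a median of -0.16, whereas the LXR targets had a median of 0.15 with none called. From E10.0 to E10.5 in wild type, 14 synthesis genes fell (median -0.48), 1 of the 4 LXR targets rose (median 0.29), and the median of all genes was -0.01. In mutants over the same interval the synthesis genes had a median of -0.07, while 2 of the 4 targets rose (median 0.33). In the interaction 3 of the 18 synthesis genes were called, all with a smaller deficit at E10.5 (*Dhcr7*, *Fdft1* and *Lss*, median of the list 0.42), and none of the 4 targets (median 0.04). Between wild-type stages *Abca1* was thus called in the direction opposite to the synthesis genes, though its values overlapped between the stages. *Mylip* (0.28) and *Abcg1* (0.29) were also higher at E10.5 there, and *Apoe* was lower (-0.30), each without a call. Both stage comparisons share their embryos with the genotype comparisons, and the values are given side by side for this reason.

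**Figure D4:**
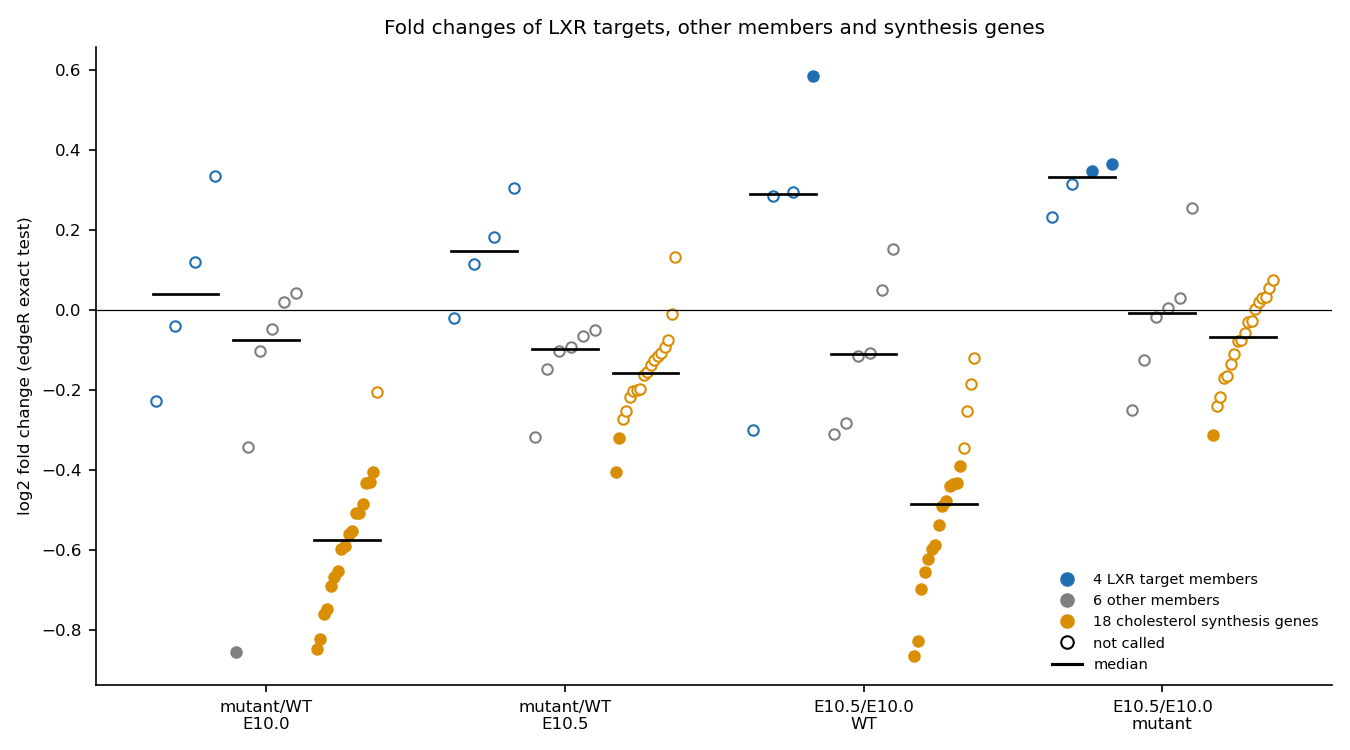
Log2 fold changes of the 4 LXR targets, the 6 other members and 18 cholesterol synthesis genes in the 4 comparisons, with filled symbols for genes called and black bars for medians. The synthesis genes lie at a median of -0.58 between genotypes at E10.0 and -0.48 between wild-type stages, while the 4 LXR targets drawn lie at 0.04 and 0.29. The 6 other LXR targets tested are not drawn and have medians of -0.29 and -0.23.

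In terms of 1 value per embryo, the mean log2 CPM of the 18 synthesis genes was 6.86 ± 0.04 (SD, n = 3) in wild type at E10.0 and 6.27 ± 0.04 (SD, n = 4) in mutants. The mean of the 4 targets was 3.46 ± 0.02 and 3.5 ± 0.19 in the same embryos. Target minus synthesis therefore went from -3.40 ± 0.04 in wild type to -2.77 ± 0.18 in mutants, and the synthesis mean moved while the target mean stayed within the spread of the mutants. Mutant replicates 1 and 3 (3.31 and 3.38) lay below the wild type in the target mean and replicates 4 and 5 (3.74 and 3.56) above it. At E10.5 the synthesis mean was 6.36 ± 0.07 in wild type and 6.19 ± 0.07 in mutants, and the target mean was 3.67 ± 0.12 and 3.82 ± 0.11. Target minus synthesis was then -2.69 ± 0.19 and -2.38 ± 0.12. From the wild type at E10.0 to the mutants at E10.5 the 4 group means of this difference rose in the order given, but their neighbouring ranges overlapped for E10.0 mutants (-2.94 to -2.52) and E10.5 wild type (-2.91 to -2.58).

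**Figure D5:**
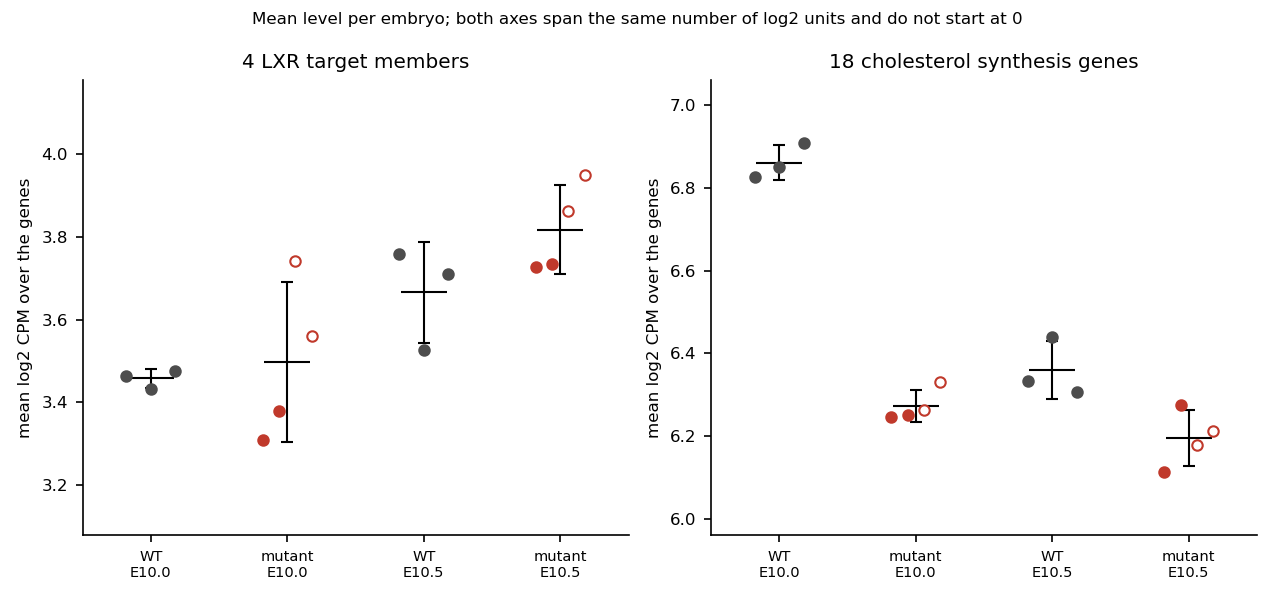
Mean log2 CPM of the 4 LXR targets and of 18 cholesterol synthesis genes in each embryo, with bars for the mean and SD and open symbols for mutant replicates 4 and 5. Both axes span the same number of log2 units and do not start at 0. The synthesis mean of wild type at E10.0 (6.86 ± 0.04) stands above all other groups, and the target means run from 3.46 ± 0.02 in that group to 3.82 ± 0.11 in mutants at E10.5.

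Of the remaining LXR targets listed, 6 were tested, and at E10.0 2 of them were lower in mutants and none higher. These were *Srebf1*, the SREBP of fatty acid synthesis and itself an LXR target (log2 fold change -0.46, adjusted p = 0.0286), and *Lpcat3*, a phospholipid remodeling enzyme (-0.30, adjusted p = 0.0324). Their direction was that of the synthesis genes. The median log2 fold change of the 6 between genotypes was -0.29 at E10.0 and -0.15 at E10.5. It was -0.23 between wild-type stages and -0.20 between mutant stages. These medians lay on the side of the synthesis genes in all 4 comparisons, unlike those of the 4 targets among the members. None of the 6 was called at E10.5. With stage, *Abcg5*, which pairs with *Abcg8* in a sterol transporter, fell in wild type (-0.89, adjusted p = 0.0383), and in mutants *Smpdl3a* rose (0.46, adjusted p = 0.0368) while *Arl4c* fell (-0.37, adjusted p = 0.0115). The *Abcg5* value rests on few reads, 60 to 73 in wild type at E10.0 and 26 to 40 at E10.5.

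Of 8 LXR partners and cofactors, the corepressor *Ncor1* was higher in mutants at E10.0 (0.27, adjusted p = 0.0608) and none was lower. The coactivator *Ncoa1* rose with stage in wild type (0.62, adjusted p = 3.08e-04) and in mutants (0.33, adjusted p = 0.0302). The retinoid X receptor genes *Rxra*, *Rxrb* and *Rxrg* were not called in any comparison. Among 8 other efflux and lipoprotein genes tested, *Abca2* was higher in mutants at E10.5 (0.42, adjusted p = 0.0473). With stage, *Abca7* fell in wild type (-0.44, adjusted p = 0.0586) and *Abca3* rose in mutants (0.34, adjusted p = 0.0451).

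Of 16 genes of intracellular sterol transport, *Stard4*, a cytosolic sterol carrier, was lower in mutants at E10.0 (-0.51, adjusted p = 0.00464) and fell with stage in wild type (-0.39, adjusted p = 0.0564). The oxysterol-binding family members *Osbpl5* (0.62, adjusted p = 1.05e-04) and *Osbpl2* (0.31, adjusted p = 0.00464) rose with stage in mutants, as did *Gramd1c* (0.33, adjusted p = 0.0758). Of 9 lipoprotein uptake genes, 1 was higher and 2 were lower in mutants at E10.0, where 3.33% and 3.28% of all genes were. The 1 higher was the endocytic receptor *Lrp2* (1.43, adjusted p = 0.0712), in the same group in which mesothelium markers were higher, and their part in it was not tested. It fell with stage in mutants (-1.90, adjusted p = 5.66e-04). Its reads were few, 10 to 45 in wild type and 39 to 143 in mutants at E10.0, and 6 to 47 in mutants at E10.5. With stage, 4 of the 9 genes fell in wild type and 6 in mutants, against 4.74% and 8.4% of all genes, and none rose. Among 5 sterol sensing genes tested, *Insig1* (-0.79, adjusted p = 4.81e-10) and *Srebf2* (-0.47, adjusted p = 4.06e-04) were lower in E10.0 mutants, and both fell with stage in wild type.

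Of the 4 oxysterol and bile acid enzymes tested, none differed between genotypes, and *Cyp7b1*, which hydroxylates oxysterols, rose with stage in wild type (0.69, adjusted p = 0.0722) and in mutants (0.74, adjusted p = 0.0113). *Cyp39a1* also rose in both (0.36 and 0.34, adjusted p = 0.0495 and 0.0110), and *Cyp46a1* fell in mutants (-0.72, adjusted p = 0.0779). Neither of the 2 sterol ester genes tested, *Nceh1* and *Lipe*, was called.

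The genes whose levels followed *Abca1* most closely over the 14 embryos were *Ltbp1*, encoding a latent TGFβ binding protein (Pearson r = 0.93), *Robo1*, a Slit receptor gene (0.92), and *Asxl3* (0.90). Those closest to *Abcg1* were *Lxn* (0.90) and *Agbl5* (0.90). These values were computed on log2(CPM + 1), they are among the highest of all genes tested, and the embryos share stage, genotype and library set.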

How the data were processed

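The authors prepared polyA libraries from pooled forelimb buds of 1 embryo each, sequenced unstranded single reads of 50 cycles, aligned them to mm9 with TopHat2 2.0.13 and deposited raw counts of uniquely mapped reads per gene symbol from htseq-count. The counts were used as deposited. After removal of sex-chromosomal and mitochondrial genes, the 12393 that reached 1 CPM in 3 or more of the 14 samples were tested in edgeR 4.0.16 (R 4.3.3), with TMM factors, common and then tag-wise dispersions (prior.df 10, all samples), the exact test and Benjamini-Hochberg adjustment. A call required an FDR of 0.1 or less and a 1.2-fold change. The interaction used the quasi-likelihood test at the same FDR. DESeq2 1.42.0 was an alternative. Levels are CPM on TMM-effective library sizes, and SEs come from replicate variances of log2 CPM without a pseudocount. The scripts were tested on simulated data with known changes. Figures used matplotlib 3.10.9 in Python 3.11.15.

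The members, gene lists and motifs were chosen with earlier results of these data known. All 10 members were named in each comparison of 2 groups, and up to 4 called genes per other list by smallest p. The main value of the interaction was given for *Apoe* and *Nr1h3* alone. Replicates differed beyond sampling noise in each group, and none were merged. Samples with the same replicate number correlated in their deviations from group means over genes at 0.571, 0.611 and 0.269 between mutant stages, so the numbers were taken as pairing there. Differently numbered mutant libraries of the 2 stages also correlated, at 0.112 to 0.383 among replicates 1 to 3 or among 4 and 5. Replicate 5 of E10.0 was closer to replicate 4 of E10.5 (0.286) than to its own number. Across the 2 sets the correlations were -0.587 to -0.174, so that pairing by number and library set cannot be told apart. Blocking on the number left 2 members called between mutant stages. Some genes of the lists are not reported here.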

Additional observations from a re-analysis of the deposited data

Results flagged for a closer look

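Within the mutant groups of 4, 20 sets of values (10 members at 2 stages) were searched for an embryo far from the others by Dixon's criterion at the 95% level, which chance meets in about 1 of 20 sets. At E10.5 there were 3. *Npc1* was at 47.4 CPM in replicate 1 and at 39.6 to 40.9 CPM in the other mutants. *Npc2* was at 126 CPM in replicate 4 and at 122 to 123 CPM in the others, a small difference in a gene of very little spread. *Nr1h3* was at 1.27 CPM in replicate 4, from 45 reads, and at 0.658 to 0.742 CPM in the others. No member passed the test of a genotype effect that differs between stages.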

How the results depend on the processing

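Of 500 member fold changes under settings that kept all samples or a fixed subset, 478 kept direction and call, 13 gained and 1 lost the call, and 8 changed sign. With 1 sample left out at a time, 29 of 50 member values kept both throughout. The causes of the changes below were not tested. At E10.0, 3 members were called with the replicate block and 3 with replicate numbers 1 to 3, against 1, and 0 to 1 with 1 sample left out. Over all genes these fits called 1961 and 2003 against 819. Between wild-type stages, 2 members were called with the quasi-likelihood test, DESeq2, RLE or upper-quartile factors, the replicate block or numbers 1 to 3. With only the 2 groups in the fit it was 3, of which *Apoe* fell (-0.30, adjusted p = 0.0738, edgeR exact test). With 1 sample left out it was 0 to 2 (0 without wild-type E10.5 replicate 3). Between mutant stages, 1 member was called at an FDR of 0.05, and 1 to 5 with 1 sample left out (5 without E10.0 replicate 4). No member was called at E10.5 or in the interaction under any of them. Outside the mutant stages, same-numbered samples correlated at -0.283 to 0.174, between wild-type stages no sample correlated best with its own number, and the block, under which *Nr1h3*, *Nr1h2* and *Apoe* were lower at E10.0 (adjusted p = 0.0247, 0.0365 and 0.0589), rests on shared numbers alone.

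Of the synthesis genes, 2 were called lower at E10.5, against 0 with the quasi-likelihood test, no filter on low counts or an FDR of 0.05, 1 with DESeq2, RLE or upper-quartile factors, the replicate block or *Rn45s* left out, and 0 to 3 with 1 sample left out. Between mutant stages 2 were called with the block, 0 with numbers 1 to 3, and 0 to 3 with 1 sample left out.

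Sign changes were in small, uncalled log2 values. With the replicate block and numbers 1 to 3, *Npc1* at E10.0 was -0.080 and -0.17 (main value 0.02) and *Soat1* at E10.5 0.028 and 0.025 (-0.09). With numbers 1 to 3 the interaction was 0.13 for *Npc1* and 0.033 for *Scarb1*. Between mutant stages *Npc2* was -0.00068 without a filter and *Nr1h2* 0.0092 with upper-quartile factors. With 1 sample left out, the genotype values at E10.0 ranged from -0.17 to 0.064 for *Abcg1*, -0.11 to 0.11 for *Npc1*, -0.0057 to 0.092 for *Soat1* and -0.11 to 0.045 for *Scarb1*. At E10.5 they ranged from -0.082 to 0.26 for *Abca1*, -0.078 to 0.044 for *Abcg1* and -0.19 to 0.086 for *Nr1h2*. Between mutant stages the ranges were -0.055 to 0.16 for *Npc1*, -0.013 to 0.030 for *Npc2* and -0.15 to 0.10 for *Nr1h2*. The interaction ranged from -0.084 to 0.15 for *Abcg1*, -0.21 to 0.0099 for *Npc1*, -0.0015 to 0.12 for *Mylip* and -0.10 to 0.042 for *Scarb1*.

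Over all genes, the calls at E10.0 split into 413 higher and 406 lower, 512 and 336 with RLE factors and 519 and 313 with *Rn45s* left out. Between wild-type stages they split into 668 and 588, and into 789 and 426 with upper-quartile factors. The count between genotypes at E10.0 was 506 at an FDR of 0.05, that at E10.5 was 280 with the block against 462, that between wild-type stages 1989 with 2 groups in the fit against 1256, and that of the interaction 87 with DESeq2, 39 without a filter and 6 with numbers 1 to 3 against 23. With 1 sample left out, these counts ranged from 256 (without wild-type E10.0 replicate 3) to 1062, 282 (without wild-type E10.5 replicate 2) to 516, 484 (without wild-type E10.0 replicate 2) to 1516, and 7 (without mutant E10.5 replicate 5) to 35. Depth limits *Nr1h3*, at 22 to 74 reads per library, more than any other member, the next lowest being *Abcg1* at 167 to 265 reads.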
